A study of Rattus norvegicus with 12 samples.

Results

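The mitochondrial solute carriers of the Slc25a family and the uncoupling proteins were compared between the parietal cortex of aged and young rats. Members were all genes whose symbol in the array annotation is Slc25a followed by a number, or Ucp1, Ucp2 or Ucp3, which gave 42 genes of the 14218 with a single symbol. They were covered by 61 of 31099 probe sets, each a group of short probes to a transcript, and the probe set with the highest mean represented each gene. The aged group held 6 male Fischer 344 rats aged 21 to 23 months in the labels (21 months in the study's methods), and the young group 6 males of the same strain aged 3 to 5 months (3 months in the methods). Rats of both ages carried implanted EEG and EMG emitters, were trained in the Morris water maze and were killed right after its probe trial. They were the earliest animals of each age to enter the study, and aged animals with a tumor had been excluded. Sample titles name parietal cortex, whereas the tissue entry reads frontal cortex.

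RNA of each rat was hybridised to 1 Affymetrix RAE230 2.0 array, and the deposited value is a linear signal intensity per probe set. The median signal per array ran from 167.9 to 194.3 in aged rats and from 161.6 to 171.9 in young rats, and precision is limited by there being 12 arrays. Slc17a7, which loads glutamate into the synaptic vesicles of cortical neurons, was bright on all arrays, with signals of 3893 to 4962 in aged rats and 4379 to 4774 in young rats. Prox1, listed as a hippocampus marker, had 256 to 522 in aged rats and 303 to 375 in young rats. Ttr, listed as a choroid plexus marker, had 77.8 to 629 in aged rats and 89.3 to 1417 in young rats. Which area was dissected was not tested. A gene was tested where its log2 signal exceeded 4.3 (a signal of 19.7) on at least 3 arrays. This held for 39 of the 42 members and 13253 genes in all, and 36 members exceeded the cutoff on all 12 arrays. Aged rats were compared with young rats with limma, p-values were adjusted by Benjamini-Hochberg across these genes, and differences are aged minus young on the log2 scale. The probes of different genes bind with different strength, so signals were compared between ages and not between genes.

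Carriers of this family are encoded in the nucleus and sit, with few exceptions, in the inner mitochondrial membrane, where they exchange nucleotides, phosphate, organic acids, amino acids and cofactors between cytosol and matrix. The uncoupling proteins belong to the same family. Ucp1 lets protons return to the matrix without ATP synthesis in brown fat, and the functions of its relatives in brain are less settled. In neurons and astrocytes the family links glycolysis, respiration and glutamate metabolism.

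Differences between aged and young cortex were small for most members, and a single gene, Slc25a14, separated the ages without overlap. No member passed an adjusted p of 0.05 with limma, a threshold that 0.0528% of all genes passed (0.0453% higher and 0.00755% lower in aged rats). With an unadjusted p of at most 0.05 there were 3 members, 2 higher and 1 lower in aged rats, which is 7.69% of the 39 tested, against a background of 9.11% of all genes (6.49% higher and 2.62% lower). Past an unadjusted p of 0.01 only Slc25a14 was left of the members, against 2.52% of all genes (0.604% for lower ones). The median difference of the members was 0.029 on the log2 scale and that of all genes was 0.024. Of the 39 members 22 were higher (56.9% of all genes were) and 17 lower in aged rats, but 17 were higher and 22 lower with quantile normalization, and 11 higher and 28 lower when each array was centred on its median. The difference was under 0.1 in size for 26 members and over 0.2 for 5. The count of 3 became 1 without aged rat 6, young rat 2 or young rat 3.

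**Figure D1:**
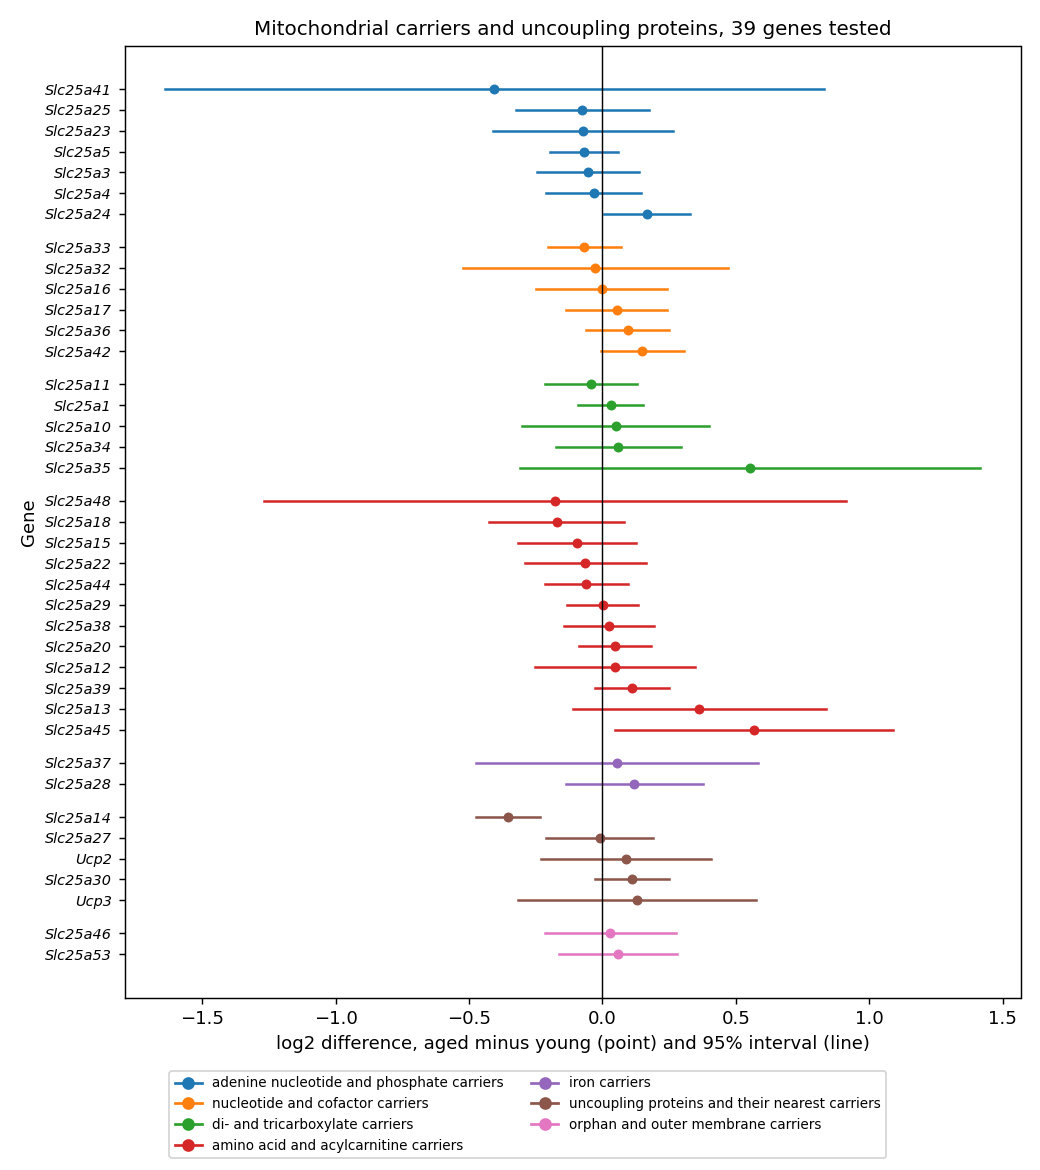
Difference between aged and young rats on the log2 scale (x axis, aged minus young) for each of the 39 members tested (y axis, coloured by role), with the 95% interval from limma as a line. The interval of Slc25a14, from -0.47 to -0.23, lies wholly below 0, and most other intervals cross 0.

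Slc25a14, also called brain mitochondrial carrier protein 1 or UCP5, is a relative of the uncoupling proteins that is abundant in brain. It was lower in the aged cortex at 0.783 of the young level. Signals ran from 895 to 1069 with a median of 996 in aged rats, and from 1200.2 to 1327 with a median of 1290.1 in young rats. Every aged rat therefore lay below every young rat, a separation shown in this direction by 0.241% of all genes tested, in the other by 0.536% and in either by 0.777%. The means were 998 ± 64.1 in aged rats and 1274 ± 45.3 in young rats (SD, n = 6 each). The log2 difference was -0.35 (standard error 0.055, 95% interval -0.47 to -0.23), with an unadjusted p of 3.51e-05 from limma, which ranked 9 among the 13253 genes. The adjusted p over all genes was 0.0516 with limma, short of the threshold. Over 27 alternatives, which include fits on fewer rats such as 1 code series alone, it ran from 0.0284 to 0.618. It was past the threshold in 3, at 0.0284 with the methods' t-test, 0.0313 with array weights and 0.0358 with an intensity trend and robust variances. It was not in the others, among them 0.0674 with quantile normalization, 0.0803 with unequal variances and 0.136 with median centring. An exact two-sided permutation test of this single gene gave p = 0.00216, the smallest that 924 splits of the rats can give, which follows from the lack of overlap.

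Sample codes given by the submitters run in a lower and a higher series of numbers, and Slc25a14 was lower in aged rats within both. In the lower series 4 aged rats had 975 to 1059 and 3 young rats 1200.2 to 1292, a log2 difference of -0.31. In the higher series 2 aged rats had 895 and 1069 and 3 young rats 1288 to 1327, a log2 difference of -0.41. With no overlap among the 12 rats both subsets had to separate too, so no test is given within them. With each rat left out in turn the difference stayed between -0.37 and -0.32, with adjusted p-values of 0.0599 to 0.163. Array annotation gives the gene 1 probe set, so no second probe set could be set beside it. It is of the type whose probes may match several transcripts, not always of the same gene. Whether transcripts of other genes add to its signal was not tested.

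Of 11 neuronal markers tested 8 had lower and 3 higher means in aged rats, with a median difference of -0.080. None passed an adjusted p of 0.05 with limma, and 1 (Syn1) had an unadjusted p of at most 0.05, against 9.11% of all genes. The summed signal of the markers was 58244 to 64865 in aged rats and 59159 to 72409 in young rats. Relative to the mean log2 signal of these markers on the same array, a quantity added after the values were seen, Slc25a14 lay at -2.24 to -1.97 in aged rats and at -1.92 to -1.69 in young rats. The difference on that scale was -0.30, and the part of the neuronal share in Slc25a14 was not tested. Of the oligodendrocyte and myelin markers tested 9 were higher and 0 lower in aged rats, with a median difference of 0.26. Endothelial markers had 8 higher and 0 lower, with a median of 0.22, where 56.9% of all genes were higher. None passed an adjusted p of 0.05 with limma. An unadjusted p of at most 0.05 was reached by 3 endothelial markers, against 9.11% of all genes. Their part in Slc25a14 was not tested. In bulk tissue fewer cells of a type and less RNA per cell cannot be told apart.

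The stretch upstream of Slc25a14 is shown because this gene alone separated the ages, beside that of its relative Slc25a27 (UCP4), whose ranges at the 2 ages nearly coincided. Both are the 250 bases before the RefSeq start in build GRCr8, for Slc25a14 at chrX:132685359-132685608 and for Slc25a27 at chr9:24804058-24804307, each on the plus strand, with matches to any of 6 motifs in capitals.
Slc25a14: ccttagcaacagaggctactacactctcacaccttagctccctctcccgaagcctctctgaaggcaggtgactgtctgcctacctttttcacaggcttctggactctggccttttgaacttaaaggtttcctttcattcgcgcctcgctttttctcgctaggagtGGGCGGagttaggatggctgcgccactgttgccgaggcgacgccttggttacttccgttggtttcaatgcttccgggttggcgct
Slc25a27: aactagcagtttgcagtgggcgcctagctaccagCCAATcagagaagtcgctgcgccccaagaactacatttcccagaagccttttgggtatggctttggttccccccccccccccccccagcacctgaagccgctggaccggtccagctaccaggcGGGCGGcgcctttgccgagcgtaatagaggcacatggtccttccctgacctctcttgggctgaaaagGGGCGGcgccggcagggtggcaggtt
The motifs, searched on both strands, were the NRF1 consensus, TGACGTCA for CRE, TCAAGGTCA for ERR, GGGCGG for the GC box, CCAAT and, for the TATA box, TATAAA. Slc25a14 had 1 match, a GC box, and Slc25a27 had 3, of which 2 were GC boxes and 1 a CCAAT box, and no matches overlapped. RefSeq promoters were found for 37 of the 42 members, and the first listed window of each gene was used. A GC box was present in 21 of them (56.8%), against 32.4% of the 27457 genes with a window of the same length, and a CCAAT box in 19 (51.4%), against 34.3% of all. The members' promoters also had a median GC content of 58.8%, against 52% for all promoters. The CRE motif was in 2 members, Slc25a25 and Slc25a33 (5.41%, against 1.7% of all), and the TATA box in 3, Slc25a38, Slc25a48 and Ucp1 (8.11%, against 13.1%). The NRF1 and ERR motifs were in 0 members, against 0.849% and 0.368% of all. With shares this low, 0 matches among 37 members say little about either motif. These are matches of letters and not measured binding.

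The other uncoupling proteins did not separate the ages. Ucp2, which is found in many tissues including microglia, had 221 to 432 with a median of 289 in aged rats, and 259 to 322 with a median of 295 in young rats. The aged values enclosed all the young ones. The log2 difference was 0.088 (95% interval -0.23 to 0.41, limma adjusted p = 0.904), and it was -0.0090 without aged rat 6, the highest of the aged rats. Summed microglial markers ran from 5668 to 10740 in aged rats and from 5035 to 6652 in young rats. Of these 10 markers 9 were higher and 1 lower in aged rats, with a median difference of 0.21. With limma 0 of 10 were past an adjusted p of 0.05. An unadjusted p of at most 0.05 was found for 2, which were higher, against 9.11% of all genes (6.49% higher). The part of these markers in Ucp2 was not tested. Slc25a27 had 415 to 550.1 with a median of 498 in aged rats, and 408 to 548 with a median of 519.6 in young rats, a difference of -0.0099 with an interval of -0.21 to 0.19. Its ranges almost coincided. Slc25a30, the carrier first named for kidney, had 320.3 to 399 with a median of 388 in aged rats, against 319.7 to 364 with a median of 355 in young rats. The difference was 0.11 (interval -0.028 to 0.25, limma adjusted p = 0.636), and it was 0.16 without aged rat 4, the lowest of the aged rats, and 0.040 with median centring. So 5 aged rats lay above all young rats, and 1 lay near the lowest young rat.

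The uncoupling proteins best known from muscle and brown fat were dim in the cortex. Ucp3, the form of skeletal muscle, had 52.3 to 90.3 with a median of 73.3 in aged rats, and 38.3 to 83.1 with a median of 72.5 in young rats. Its difference was 0.13 (interval -0.32 to 0.57), and it turned to -0.0080 with quantile normalization and to -0.11 with the mean of its probe sets. Ucp1, the thermogenic form of brown fat, was below the cutoff on 10 of 12 arrays and was not tested. Its signal was 3.65 to 37.3 with a median of 10.3 in aged rats and 4.46 to 13.0 with a median of 6.68 in young rats, and the 2 arrays above the cutoff were those of aged rats 5 and 6. No fold is given for signals this low.

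**Figure D2:**
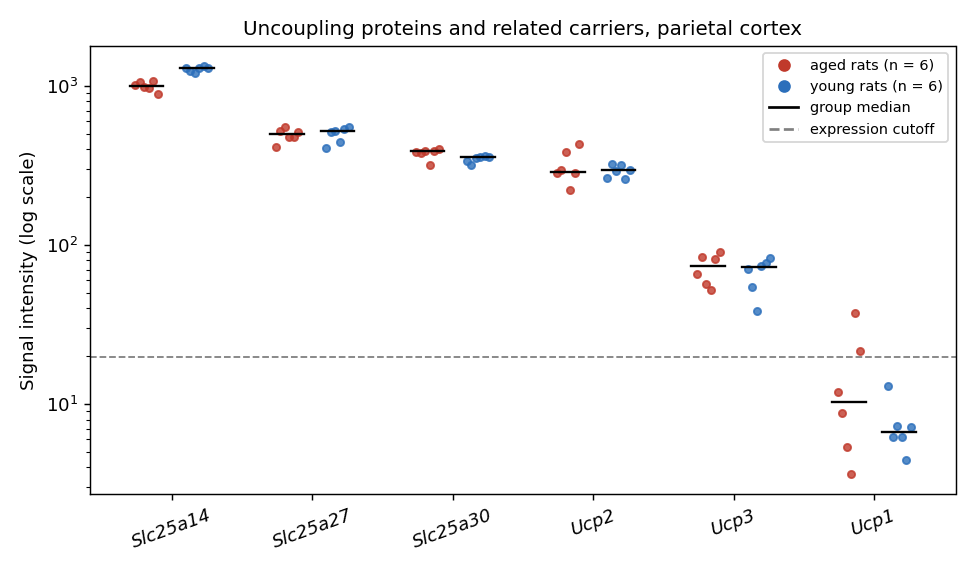
Signal intensity (y axis, log scale) of the uncoupling proteins and their nearest carriers (x axis), with 1 point per rat for 6 aged and 6 young rats and a line at each group median. For Slc25a14 all aged points lie below all young points, for the other genes the groups overlap, and most Ucp1 points lie under the dashed cutoff at 19.7.

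Carriers that move ADP, ATP and phosphate, the bulk traffic of oxidative phosphorylation, had bright probe sets and close levels at both ages. Slc25a4, the ADP/ATP exchanger of heart, muscle and brain, had 8726 to 11730.2 with a median of 10252 in aged rats, and 9566 to 11327 with a median of 10088 in young rats. Slc25a5, a second ADP/ATP exchanger, had 7359 to 8596 with a median of 8216 in aged rats, and 7812 to 9190 with a median of 8415 in young rats. Slc25a3, which brings phosphate into the matrix, had 7620.3 to 11193 with a median of 9220.3 in aged rats, and 8682 to 10622 with a median of 9360.4 in young rats. For each of the 3 genes the groups overlapped widely. The log2 differences were -0.033 for Slc25a4 (interval -0.21 to 0.15), -0.069 for Slc25a5 (interval -0.20 to 0.059) and -0.054 for Slc25a3 (interval -0.25 to 0.14). Slc25a4 and Slc25a3 turned to 0.075 and 0.059 within the lower code series, so no direction is drawn for them.

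The ATP-Mg/phosphate carriers adjust the adenine nucleotide pool of the matrix, and Slc25a23, Slc25a24 and Slc25a25 do so in response to calcium. Slc25a24 had 172 to 205 with a median of 184 in aged rats, and 145 to 189.7 with a median of 168 in young rats. It was 1.12-fold higher in aged rats (log2 difference 0.17, standard error 0.074), with an unadjusted limma p of 0.0452 and an adjusted p of 0.533. The unadjusted p was 0.102 without young rat 3 and at most 0.05 in 3 of the 12 fits that left out 1 rat. The difference was 0.098 with quantile normalization and 0.095 with median centring. The difference was -0.074 for Slc25a23 and -0.075 for Slc25a25, and both intervals crossed 0. The calcium-independent Slc25a41 was under the cutoff on 3 of 12 arrays and ranged from 5.19 to 62.1 in aged rats and from 12.9 to 61.9 in young rats. Slc25a31, the ADP/ATP exchanger of testis, exceeded the cutoff on 1 aged array and was not tested. Of the 7 members of this group tested, 1 was higher and 6 lower in aged rats, with a median of -0.069.

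Carriers of nucleotides and cofactors were likewise close in both groups, with 3 higher and 3 lower of 6 tested. Slc25a42, which imports coenzyme A, had 307 to 401 with a median of 357 in aged rats, and 294 to 345 with a median of 328 in young rats. All but 1 of the aged rats lay above all of the young rats. The log2 difference was 0.15 (standard error 0.071, interval -0.0070 to 0.30, limma adjusted p = 0.563), and 0.078 with median centring. Slc25a36, a carrier of pyrimidine nucleotides, had 2163 to 2760 with a median of 2369 in aged rats, and 2084 to 2531 with a median of 2262 in young rats, a difference of 0.094. Slc25a33, its close relative, had 801 to 927 with a median of 850.4 in aged rats, and 820 to 974 with a median of 909 in young rats, a difference of -0.068. Slc25a17, the coenzyme A carrier of peroxisomes, and Slc25a16 had differences of 0.053 and -0.0025. Slc25a32, a carrier of folate and flavin nucleotides, was dim and had -0.027 with an interval of -0.52 to 0.47.

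Carriers of dicarboxylates and citrate, which feed the citric acid cycle and lipid synthesis, did not differ beyond the spread between rats. Slc25a1, which exports citrate, had 410 to 478 with a median of 426 in aged rats, and 393 to 458 with a median of 419 in young rats, among the narrowest ranges of the family. Slc25a11, the oxoglutarate/malate exchanger of the malate-aspartate shuttle, had 2095 to 2924 with a median of 2595 in aged rats, and 2390 to 2856 with a median of 2643 in young rats. Their differences were 0.030 (interval -0.091 to 0.15) and -0.043 (interval -0.22 to 0.13). Slc25a35, whose substrates are less well known, had 23.1 to 51.0 with a median of 38.7 in aged rats, and 7.58 to 56.6 with a median of 28.0 in young rats. Its difference of 0.55 had an interval of -0.31 to 1.41 and was 0.21 without young rat 6, which lay below the cutoff. Slc25a21, the oxodicarboxylate carrier, was below the cutoff on all 12 arrays.

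Amino acid carriers tie the mitochondria to glutamate, aspartate and urea cycle metabolism. Slc25a12 (aralar), the aspartate/glutamate exchanger that neurons use in the malate-aspartate shuttle, had 1341 to 1867 with a median of 1641 in aged rats, and 1117 to 2060.0 with a median of 1657 in young rats. Slc25a13 (citrin), the exchanger best known from liver, had 148 to 339 with a median of 237 in aged rats, and 138 to 307 with a median of 174 in young rats. The log2 difference was 0.047 for Slc25a12 (interval -0.25 to 0.35, but -0.023 with each array centred on its median) and 0.36 for Slc25a13 (interval -0.11 to 0.84, limma adjusted p = 0.652). For Slc25a13, 5 young rats lay between 138 and 181 and young rat 1 at 307, and the difference was 0.51 without it and 0.26 without aged rat 1. The unadjusted limma p of Slc25a13 was at most 0.05 with subject number as a block. A second Slc25a13 probe set had 95.4 to 188 with a median of 123 in aged rats and 72.9 to 136 with a median of 94.7 in young rats, a difference of 0.42 (standard error 0.17). Its unadjusted p was 0.0331 and its adjusted p 0.597 in the limma fit of all probe sets. With the mean of its probe sets Slc25a13 had a difference of 0.39 and an unadjusted limma p of 0.0493. In that setting 4 members had an unadjusted p of at most 0.05.

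Glutamate itself enters the matrix through Slc25a22 and Slc25a18, of which Slc25a18 is enriched in astrocytes. Slc25a22 had 1624 to 2752 with a median of 2147 in aged rats, and 2147 to 2492 with a median of 2204 in young rats. The aged spread was the wider one. Slc25a18 had 729.7 to 1082 with a median of 878 in aged rats, and 820.2 to 1180.2 with a median of 998 in young rats. The differences were -0.065 for Slc25a22 (interval -0.29 to 0.16) and -0.17 for Slc25a18 (interval -0.43 to 0.082, limma adjusted p = 0.686). With subject number as a block, Slc25a18 had an unadjusted limma p of at most 0.05. Of 9 astrocyte markers 7 were higher and 2 lower in aged rats, with a summed signal of 57561 to 71814 in aged rats and 55903 to 68354 in young rats.

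Slc25a45, a less well characterised member of the amino acid branch, had 44.2 to 93.6 with a median of 63.8 in aged rats, and 22.9 to 61.6 with a median of 47.4 in young rats. It was 1.48-fold higher in aged rats (log2 difference 0.57, standard error 0.24), with an unadjusted limma p of 0.0351 and an adjusted p of 0.509. The groups overlapped, and without young rat 2 the difference was 0.38, while the unadjusted p was 0.0796 without aged rat 6 and 0.0738 with quantile normalization. Slc25a39, which supplies the matrix with glutathione, had 812 to 933 with a median of 864 in aged rats, and 731 to 869 with a median of 823 in young rats, a difference of 0.11 (interval -0.028 to 0.25) that was 0.039 with median centring and 0.35 with the mean of its probe sets. Slc25a20, the carnitine/acylcarnitine exchanger of fatty acid oxidation, and Slc25a29, a carrier of basic amino acids, had differences of 0.047 (interval -0.087 to 0.18) and 0.00014 (interval -0.13 to 0.13). Of the 12 members of this group tested, 7 were higher and 5 lower in aged rats.

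Mitoferrins bring iron into the matrix for heme and iron-sulfur clusters. Slc25a28 (mitoferrin 2), the widely used form, had 554 to 791 with a median of 639 in aged rats, and 449 to 706 with a median of 636 in young rats. Slc25a37 (mitoferrin 1), the form of red cell precursors, had 70.2 to 160.0 with a median of 80.2 in aged rats, and 57.5 to 142.5 with a median of 84.2 in young rats. Both groups overlapped almost fully for both genes. The differences were 0.12 (interval -0.14 to 0.38) and 0.054 (interval -0.47 to 0.58), and that of Slc25a28 was 0.066 without aged rat 6, 0.033 without young rat 6 and 0.049 with median centring, while that of Slc25a37 turned to -0.042 with quantile normalization and -0.017 with median centring. Summed blood cell markers ran from 6062 to 9654 in aged rats and from 5018 to 9340 in young rats. Hbb made up most of this sum, with means of 7112 in aged rats and 6119 in young rats. Of the 4 blood cell markers tested 4 were higher in aged rats, with a median difference of 0.38. With limma 0 of them had an unadjusted p of at most 0.05. The part of these markers in Slc25a37 was not tested. The outer membrane carrier Slc25a46 had a difference of 0.029 and the orphan carrier Slc25a53 of 0.057.

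**Figure D3:**
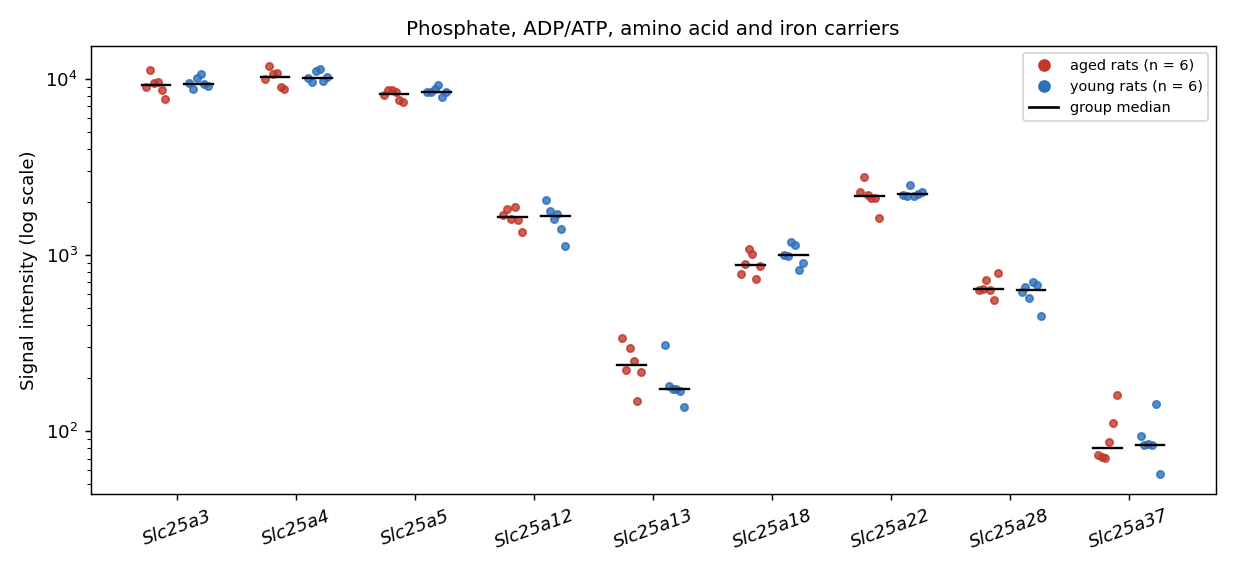
Signal intensity (y axis, log scale) of the phosphate, ADP/ATP, amino acid and iron carriers described by value (x axis), with 1 point per rat for 6 aged and 6 young rats and a line at each group median. The groups overlap for all 9 genes, and Slc25a13 shows 1 young rat at 307 above the other 5.

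Whether 2 carriers of the same substrate shifted unequally with age was tested within each array, for 4 pairs, by an exact two-sided permutation test. None of the 4 differed with age after Benjamini-Hochberg adjustment over the pairs. For Slc25a4 minus Slc25a5 the log2 difference averaged 0.32 ± 0.081 in aged rats and 0.28 ± 0.055 in young rats (SD, n = 6 each), a change of 0.036 (exact p = 0.411, adjusted p = 0.644). For Slc25a12 minus Slc25a13 it averaged 2.78 ± 0.41 in aged rats and 3.10 ± 0.21 in young rats, a change of -0.32 (exact p = 0.123, adjusted p = 0.494). This was the widest shift of the 4, and its values still overlapped, at 2.31 to 3.42 in aged rats against 2.74 to 3.30 in young rats. For Slc25a18 minus Slc25a22 the change was -0.11 (exact p = 0.483, adjusted p = 0.644), and for Slc25a37 minus Slc25a28 it was -0.065 (exact p = 0.777, adjusted p = 0.777).

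**Figure D4:**
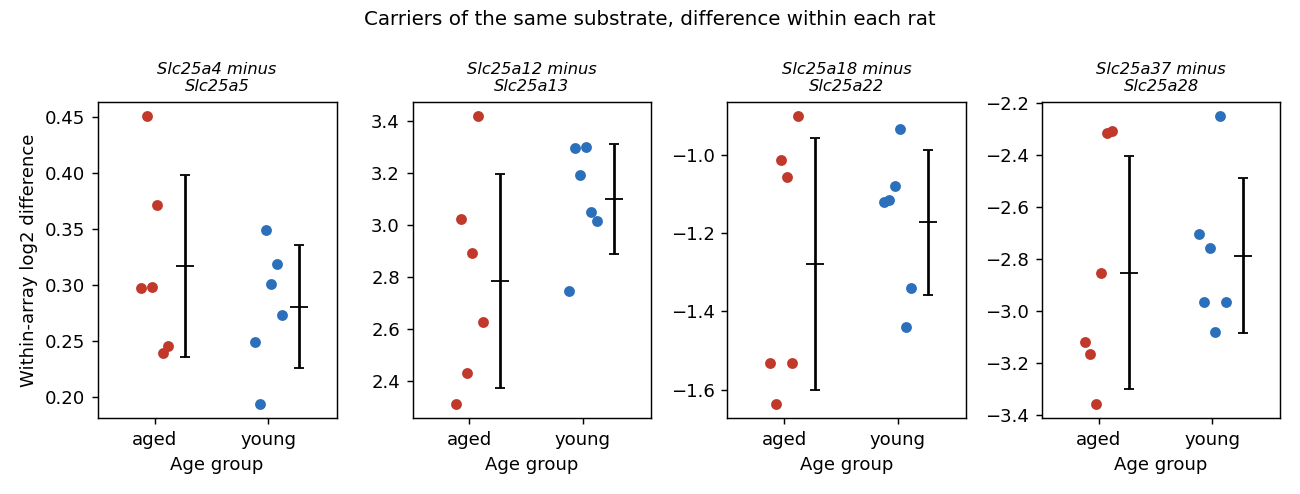
Within-array log2 difference (y axis) between 2 carriers of the same substrate for each of 6 aged and 6 young rats (x axis), with the group mean and SD as a bar beside the points and a separate scale per panel. The ages overlap in all 4 pairs, and the widest shift is that of Slc25a12 minus Slc25a13, at 2.78 in aged and 3.10 in young rats.

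The limma intervals limit how large an unseen change could be, for each gene on its own and under the deposited scaling. They leave out the choice of normalization. With median centring the median of the members went from 0.029 to -0.042. For 22 of the 39 members the whole 95% interval lay inside a 1.25-fold change in either direction, and for 34 inside a 1.5-fold change, against 44.8% and 72.5% of all genes tested. The SD between rats within an age group had a median of 0.18 on the log2 scale over the members, against 0.20 over all genes. It ran from 0.076 for Slc25a14 to 1.05 for Slc25a41, and the dim members had the widest spread (Spearman's rho of -0.52 between SD and mean signal across the 39 genes, which are not independent replicates). Of 13 members with more than 1 probe set above the cutoff, 5 had all probe sets on the same side of 0 and 8 had both signs. The widest gap was for Slc25a48, at -0.18 and 0.69 on dim probe sets.

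Other genes of mitochondrial transport and metabolism, from lists drawn up for this comparison, showed small differences as well, and none passed an adjusted p of 0.05 with limma. Of 25 other membrane transport genes, including the porins, pyruvate carriers and calcium uniporter, 13 were higher and 12 lower in aged rats, with a median of 0.013. Against 9.11% of all genes tested, 1 of them, higher, had an unadjusted limma p of at most 0.05. This was Tspo, the outer membrane protein used as a marker of activated microglia, at 209 ± 72.0 in aged rats and 127 ± 26.1 in young rats (SD, n = 6 each), a difference of 0.69 (limma adjusted p = 0.354). Mpc2, a subunit of the pyruvate carrier, had -0.19 (interval -0.40 to 0.018). Of 18 shuttle enzymes and carrier partners 9 were higher and 9 lower (median -0.0043), of 12 biogenesis regulators 8 were higher and 4 lower (median 0.039), and of 13 import and structural genes 3 were higher and 10 lower (median -0.021). In these 3 lists 0 genes reached an unadjusted p of 0.05 with limma, against 9.11% of all genes tested. The smallest p-values in them belonged to Tomm70, an import receptor of the outer membrane, at -0.11 (interval -0.22 to 0.010), to Pparg, a nuclear receptor of lipid metabolism, at 1.22 (interval -0.17 to 2.60), and to Crat, which transfers acetyl groups to carnitine, at 0.16 (interval -0.025 to 0.35). Ppargc1a, a coactivator of mitochondrial biogenesis, had a difference of 0.0078 (interval -0.25 to 0.27).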

How the data were processed

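RNA of 6 aged and 6 young rats was measured on 1 Affymetrix RAE230 2.0 array each. The deposited files hold 1 linear signal intensity per probe set and array, which the authors had scaled: with 2% of values trimmed at either end, every array averaged 500.1. MAS5, GCRMA and R 2.7.1 appear in the submitters' processing notes, without an order of steps, and the methods name gcRMA, so these values may differ from those the study tested. Intensities were taken to log2 with no further normalization. Symbols came from the platform annotation, updated by gene ID for 20764 of 20832 probe sets with 1 symbol (GRCr8 gene table), which left the members the same. Probe sets with several symbols (436) or without one (9831) were not tested as genes, among them the 2 of Slc25a51. The cutoff of 4.3 is the number given in the methods, which chose it on the spread of gcRMA signals. On the deposited values 13253 of 14218 genes passed it, and it need not mark the same limit of presence.

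The ages were compared with limma 3.58.1 in R 4.3.3, using its moderated test. The code was first run on simulated data, independent normal values with known shifts. Those data held no array, batch or pairing effects, so the run cannot show how the test behaves under them. Exact permutation tests took all splits of the rats. Values are given for the 12 members with the smallest limma p, the uncoupling proteins and their nearest carriers, the 4 pairs, Slc25a3, up to 3 further members of each role and up to 3 genes of each list. Ppargc1a was added after its value was seen. Members and lists were chosen with earlier results of these data known. Each result was recomputed under other normalizations (quantile, median centring), filters on low signal, summaries of probe sets, variance models and tests (including that of the methods), with array weights, with subject number or code series as a block, within each series, and without single rats or aged rats 2 and 6. Plots were made in matplotlib 3.10.9 under Python 3.11.15.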

Additional observations from a re-analysis of the deposited data

Results flagged for a closer look

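Among 52 groups of 6 rats examined (22 named members and 4 pairs, at each age), 4 held a rat whose gap to the nearest other rat exceeded Dixon's critical value, where chance gives about 1 in 20 groups. Aged rat 4 had 320.3 for Slc25a30, against 377 to 399 in the other aged rats. Young rat 1 had 307 for Slc25a13, against 138 to 181 in the other young rats, and was high for the second probe set of the gene as well, at its maximum of 136. Young rat 3 had 2492 for Slc25a22, against 2147 to 2268 in the other young rats. Young rat 1 had 13.0 for Ucp1, against 4.46 to 7.28 in the other young rats, all below the cutoff. The causes were not tested.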

How the results depend on the processing

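Of 21 named members 13 kept their direction under each alternative that gave them a value. Slc25a35 had no value where all 12 arrays had to exceed the cutoff, and testing every probe set on its own was summarised as counts only. The count of members past an adjusted p of 0.05 was 1, Slc25a14, with an intensity trend and robust variances, with array weights and with the methods' t-test, and 0 under the other alternatives, each rat left out included. Over 27 alternatives, fits on fewer rats included, the adjusted p of Slc25a14 ran from 0.0284 to 0.618 and its log2 difference from -0.42 to -0.31. The count at an unadjusted p up to 0.05 was 1 with quantile normalization, with median centring, in each code series alone and without aged rats 2 and 6, and 1 to 4 with each rat left out. The median of the members was -0.011 with quantile normalization, -0.042 with median centring, 0.082 in the higher code series and -0.0081 without aged rats 2 and 6, and 0.0079 to 0.039 with each rat left out. The median of all genes was 0.0018 with quantile normalization and -0.047 with median centring. The lists of other mitochondrial genes had 0 calls under every alternative.

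With the subject number as a replicate block the count at an unadjusted p up to 0.05 was 5 (3 higher, 2 lower), with Slc25a13 and Slc25a18 added, and the adjusted p of Slc25a14 was 0.145. Deviations of rats with the same number correlated at -0.040 to 0.16, over 0.1 in 4 of 6 pairs, and 5 of 6 correlated best with their own number, a hint of pairing from the data. Of the 2 pairs not over 0.1, number 5 was at 0.098 and still correlated best with its own number. The labels tie the numbers to no shared litter, batch or day, so the main fit left the rats unpaired. Without the block the count was 3 and the limma adjusted p of Slc25a14 was 0.0516. Whether the rats are paired was not tested.

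Directions turned for small differences. With quantile normalization Ucp3 was at -0.0080 and Slc25a37 at -0.042, and with median centring Slc25a12 was at -0.023 and Slc25a37 at -0.017. With the mean of the probe sets of a gene Ucp3 was at -0.11 and Slc25a27 at 0.040, and with the code series as a block Slc25a12 was at -0.0055. In the lower code series Ucp2 was at -0.0030, Slc25a27 at 0.022, Slc25a4 at 0.075, Slc25a12 at -0.055, Slc25a22 at 0.025, Slc25a37 at -0.22 and Slc25a3 at 0.059. In the higher code series the pair differences were -0.055 for Slc25a4 minus Slc25a5, 0.022 for Slc25a18 minus Slc25a22 and 0.45 for Slc25a37 minus Slc25a28. Without aged rats 2 and 6 Ucp2 was at -0.016, Ucp3 at -0.026 and Slc25a37 at -0.063. With each rat left out Ucp2 ran from -0.0090 to 0.18, Ucp3 from -0.021 to 0.21, Slc25a27 from -0.065 to 0.038, Slc25a4 from -0.077 to 0.0080, Slc25a12 from -0.053 to 0.12, Slc25a22 from -0.14 to 0.015, Slc25a37 from -0.11 to 0.19 and Slc25a37 minus Slc25a28 from -0.17 to 0.042. The causes were not tested. Dim members had the widest intervals.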
